A study of Mus musculus with 4 samples.

Results

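The 10 genes described here encode cytokines with which lymphocytes act on other cells: *IFNG*, *TNF*, *LTA*, *LTB*, *IL2*, *IL4*, *IL13*, *IL32*, *IL16* and *AREG*. They were chosen by name, and earlier results of these data were known when they were chosen. They are 10 of the 33538 human genes in the reference against which the cells were counted, and each had at least 1 unique molecular identifier (UMI, one tagged transcript molecule) in each of the 4 libraries. The values concern which human cell classes held these transcripts, and how the levels differed between naïve, sham and spinal cord injury (SCI) blood and between SCI blood and the injured cord.

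Interferon gamma, the product of *IFNG*, comes from cytotoxic T cells, natural killer cells and type 1 helper T cells and activates macrophages. TNF and the lymphotoxins LTA and LTB belong to one family. LTA alone acts on the TNF receptors, whereas LTA joined to LTB binds the lymphotoxin beta receptor and shapes lymphoid tissue. IL-2 is the T cell growth factor of activated helper cells, and IL-4 and IL-13 are the type 2 cytokines of helper T cells, basophils and mast cells. IL-32 and IL-16 are made by T cells, the latter as a precursor whose cleaved end binds CD4. Amphiregulin, the product of *AREG*, binds the epidermal growth factor receptor and is tied to tissue repair.

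The cells were human CD45+ leukocytes from huNSG-SGM3 mice, which are immunodeficient hosts engrafted with human umbilical cord blood stem cells. All 4 groups share this host. Its NOD.Cg-Prkdcscid and IL2rgtm1Wjl alleles leave it without lymphocytes of its own. Its transgene, written Tg(CMV-IL3,CSF2,KITLG)1Eav/MloySzJ in the strain name, drives the human genes for IL-3, GM-CSF and stem cell factor from the CMV promoter. Hosts were labelled 15 weeks of age. Naïve hosts had no surgery, sham hosts a laminectomy at T9 and SCI hosts a contusion at T9, and the operated groups were sampled at 7 days. Naïve and sham blood came from male hosts, and SCI blood and cord from hosts of both sexes, so that sex of the host and injury cannot be told apart. The cord was digested with warm papain and enriched on magnetic beads before sorting, and blood was not, so that tissue and handling cannot be told apart either.

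With 1 library per group there were no replicates and no test between groups. Every interval given is a 95% interval for counting error alone (exact Poisson for a level, exact binomial for a share, conditional binomial for a fold). After filtering, 6323 naïve, 4645 sham and 5934 SCI blood cells and 118 SCI cord cells remained. They held 27695487 to 31179110 human UMIs per blood library and 1430777 in the cord, with a median of 3697, 5230, 4655 and 9331 UMIs per cell in naïve, sham and SCI blood and in the cord. A UMI of *PTPRC*, the gene for CD45, was found in 96.6 to 99.4% of cells. Levels are in CPM, counts per 1000000 human UMIs without ribosomal and mitochondrial genes, so that they are shares of a cell's RNA. UMIs were counted at the 3′ end of transcripts and do not scale with transcript length.

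The cells fell into 12 clusters, made without the 10 genes. Of these, 6 were T-like (cytotoxic, Treg-like, CD8, an NRP2-led cluster and 2 CD4 clusters, called led by *CD40LG* and *PDCD1*). *CD40LG* and *PDCD1* are each among the 10 leading genes of their cluster, of which *CCR10* and *FZD3* came first. The listed CD4 T markers had a median fold over all other cells of 1.04 in the *CD40LG*-led and 1.98 in the *PDCD1*-led cluster. The others were B-like, plasma-like, monocyte-like, cycling, basophil or mast-like and eosinophil-like. No separate natural killer cluster was found. Plasma-like cells made up 6.12% of naïve cells but 19.8% of naïve UMIs, against 0.0646% of sham and 0.0843% of SCI blood cells. CD8 T-like cells were 24.3% of SCI blood, against 10.4% of naïve and 13.4% of sham blood. Basophil or mast-like cells were 12.7% and eosinophil-like cells 11.0% of the cord, against 2.21% and 0.101% of SCI blood. These shares move the level of any gene that differs between classes. For the 10 genes, pooled and within-class values are therefore given side by side where counts allow.

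The 10 genes covered a wide range of levels. *LTB* stood at 1939 (naïve), 2308 (sham) and 2783 CPM (SCI) in blood and 1562 CPM in the cord. *IL32* stood at 2193 (naïve), 2821 (sham) and 2696 CPM (SCI) in blood and 1968 CPM in the cord. *IL16* followed at 106 (naïve), 127 (sham) and 126 CPM (SCI) in blood and 149 CPM in the cord. These 3 genes were found in most or many lymphocytes, with a *LTB* UMI in 87.6% of naïve cells, an *IL32* UMI in 72.3% and an *IL16* UMI in 28.1%.

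The inducible genes were rare by comparison. *TNF* reached 27.6 (naïve), 25.5 (sham) and 26.4 CPM (SCI) in blood and 68.8 CPM in the cord, and was found in 7.48 to 8.72% of blood cells. *LTA* reached 10.8 (naïve), 13.3 (sham) and 16.2 CPM (SCI) in blood and 19.8 CPM in the cord. *IFNG* reached 3.04 (naïve), 4.15 (sham) and 6.59 CPM (SCI) in blood and 11.3 CPM in the cord, and its UMIs were found in 0.807% of the naïve, 1.18% of the sham and 1.70% of the SCI blood cells. With every cell thinned to 1000 UMIs, these shares were 0.316% (0.193 to 0.488%), 0.323% (0.181 to 0.532%) and 0.421% (0.273 to 0.621%), with intervals that overlap. *IL4*, *IL13*, *IL2* and *AREG* each stayed below 7 CPM in every blood library, and *IL2* and *AREG* had 9, 23 and 16 and 13, 5 and 23 UMIs in naïve, sham and SCI blood.

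**Figure D1:**
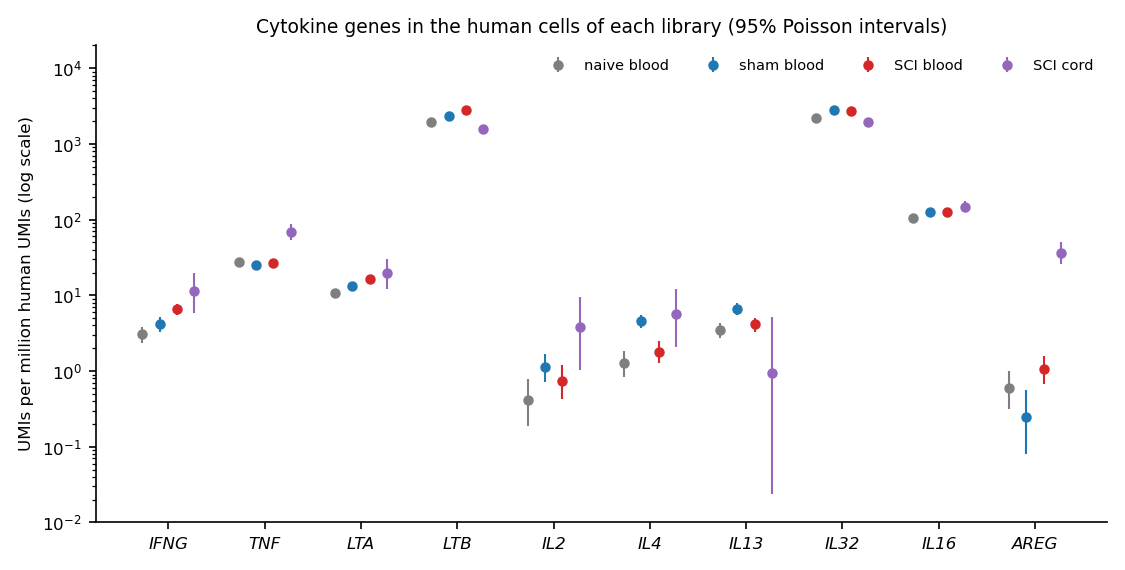
Level of each of the 10 cytokine genes (x axis) in UMIs per 1000000 human UMIs (CPM) on a log axis (y axis), 1 point per library with its 95% Poisson interval. *LTB* and *IL32* sit above 1000 in all 4 libraries, and *AREG* is the gene whose cord point (36.8) lies farthest above its blood points (0.244 to 1.07).

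Free transcript in the droplets sets the floor for these values. Barcodes of host cells, with under 10% human UMIs, had no UMI of *IFNG*, *IL2* or *IL4* in any library, although their median was only 15 to 42.5 human UMIs per barcode. *LTB* was found in 1.36 to 3.26% of them and *IL32* in 2.51 to 7.61%. A share at or below these, in a class that should lack the gene, is read as background.

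The classes that held the UMIs differed from gene to gene. Over the 3 blood libraries, *IL4* and *IL13* lay almost wholly in basophil or mast-like cells, *IFNG* mainly in cytotoxic T-like and cycling cells, and *IL2* mainly in CD4 T-like cells led by *CD40LG*. *TNF*, *LTA*, *LTB* and *IL16* were spread over T-like and B-like cells, and *IL32* over the T-like classes. Where 3 values of a class follow one another, they are those of the naïve, sham and SCI blood libraries in this order.

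**Figure D2:**
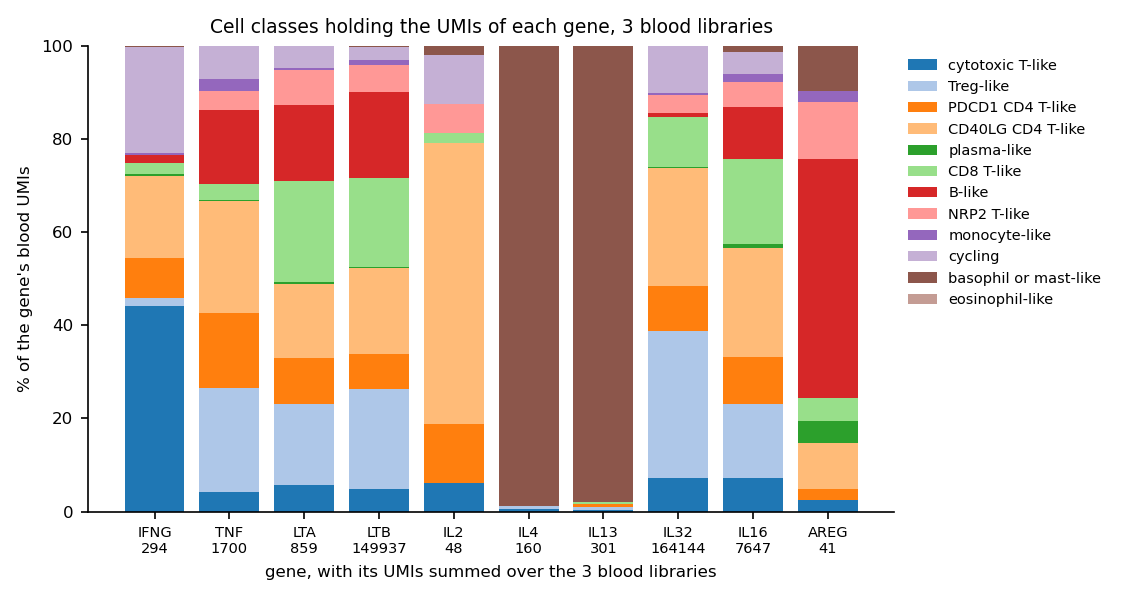
Percent of each gene's blood UMIs (y axis) held by each of the 12 cell classes, with the 3 blood libraries summed and the number of UMIs under each gene. The brown bars of *IL4* and *IL13* are basophil or mast-like cells (98.8% and 98.0%), and the dark blue bar of *IFNG* is the cytotoxic T-like class (44.2%).

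*IFNG* had 294 blood UMIs, of which 44.2% lay in cytotoxic T-like cells, 22.8% in cycling cells and 17.7% in CD4 T-like cells led by *CD40LG*. Of the cells in the cytotoxic T-like cluster, 12.2% were marked as doublets but kept, against 0 to 5.83% in the other clusters. The folds and shares of this class include them. Within cytotoxic T-like cells the level was 24.8, 21.1 and 49.95 CPM, and 5.13%, 7.09% and 12.5% of these cells had a UMI. The SCI level was 2.00-fold (interval 1.32 to 3.11) that of naïve and 2.34-fold (interval 1.481 to 3.90) that of sham blood, whereas sham was at 0.855-fold (interval 0.488 to 1.46) naïve. Without the cell with most *IFNG* in each library they were 2.06-fold (interval 1.33 to 3.30) and 2.66-fold (interval 1.62 to 4.72). Of all genes counted in this class, 14.7% differed by 1.5-fold or more between SCI and naïve and 13.9% between SCI and sham blood. The summed level of 22 dissociation and immediate early genes in these cells was 4989.8, 5464 and 5823 CPM in naïve, sham and SCI blood. With every cell thinned to 1000 UMIs, the shares with a UMI were 2.26%, 1.49% and 3.86% in naïve, sham and SCI blood, with intervals of 1.13 to 4.01%, 0.408 to 3.78% and 2.22 to 6.19% that overlap. In B-like cells, which should lack *IFNG*, 0.157 to 0.176% had a UMI at medians of 3671 to 5653 UMIs per cell, against medians of 3520 to 5552 in the cytotoxic class. Cycling cells stood at 4.10, 10.5 and 18.2 CPM, again with SCI highest, and the SCI level was 4.14-fold (interval 1.86 to 12.8) the naïve level, on 6 naïve and 38 SCI UMIs.

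The cells with *IFNG* were set beside the others of the cytotoxic class. Of 96 blood cells with an *IFNG* UMI, 67.7% (57.4 to 76.9%) also had one of *GNLY*, which encodes the pore-forming granulysin, against 47.5% (44.5 to 50.5%) of cells without *IFNG*. By library the shares were 48 against 41.3% in naïve, 63.2 against 36.5% in sham and 78.8 against 62.8% in SCI blood. The granzyme gene *GZMH* was found in 40.6% against 23.6% over the 3 libraries, and in 20 against 15.8% in naïve, 36.8 against 22.9% in sham and 51.9 against 33.9% in SCI blood. Both genes were found more often beside *IFNG* in each library, with the smallest gaps in naïve blood. Both are among the 8 listed cytotoxic markers and were named after their values were seen. These shares are without thinning. A cell with more UMIs has a UMI of any gene more often, and the part of depth was not tested. *CD3D*, a subunit of the T cell receptor complex, was found in 96.9% of the cells with *IFNG*. *TNF* was found in 7.29% (2.98 to 14.4%) of them and in 4.56% (3.39 to 5.99%) of the others.

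CD8 T-like cells held almost no *IFNG*, with 0, 1 and 6 UMIs in 657 naïve, 622 sham and 1443 SCI blood cells. The 0 in naïve blood allows a share of up to 0.457% of cells with a UMI. The neighbouring long non-coding gene *IFNG-AS1*, a leading gene of this cluster that was named after its values were seen, stood there at 74.8, 80.9 and 83.6 CPM, against 17.0, 8.44 and 12.1 in cytotoxic T-like cells. The gene and its non-coding neighbour thus led in different clusters. Of the regulators, *EOMES* stood at 79.9, 77.7 and 53.0 CPM in CD8 T-like cells in naïve, sham and SCI blood. In cytotoxic T-like cells it was highest in naïve blood, at 175, 66.6 and 85.6 CPM. *TBX21*, which encodes T-bet, the type 1 master regulator, was at 0.710 to 1.27 CPM in CD8 T-like cells. In cytotoxic T-like cells *TBX21* was highest in SCI blood, at 42.5, 35.4 and 72.1 CPM.

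*TNF* was found in most lymphoid classes and in monocyte-like cells. Its highest levels in blood classes of all 3 libraries lay in CD4 T-like cells led by *PDCD1* (53.9, 47.5 and 43.1 CPM), Treg-like cells (48.1, 35.9 and 43.8 CPM) and CD4 T-like cells led by *CD40LG* (39.5, 31.4 and 34.2 CPM). B-like cells held 33.0, 25.4 and 27.1 CPM. CD8 T-like cells were low at 3.17, 4.60 and 9.71 CPM, and basophil or mast-like cells had 0, 2 and 1 UMIs. The 387 naïve plasma-like cells, used as the class that should lack *TNF*, had 2 UMIs (0.517% of cells) at a median of 12672 UMIs per cell.

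Pooled *TNF* hardly differed between blood libraries, at 0.922-fold (interval 0.818 to 1.04) for sham and 0.956-fold (interval 0.851 to 1.07) for SCI against naïve, but classes moved apart beneath it. Cytotoxic T-like cells had 27, 3 and 40 *TNF* UMIs in 487 naïve, 268 sham and 415 SCI cells, or 19.1, 2.53 and 28.5 CPM. The sham level was thus 0.151-fold (interval 0.0257 to 0.430) the naïve level, and the SCI level 9.79-fold (interval 3.59 to 57.0) the sham level, on 3 sham UMIs. *IFNG* in the same sham cells was not low, with 25 UMIs. In CD8 T-like cells SCI was 2.82-fold (interval 1.21 to 9.93) naïve, and in cycling cells SCI was 0.519-fold (interval 0.322 to 0.822) and sham 0.554-fold (interval 0.350 to 0.868) naïve. In Treg-like cells sham was 0.747-fold (interval 0.585 to 0.952) and SCI 0.912-fold (interval 0.701 to 1.18) naïve.

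*LTA* was spread over the lymphoid classes, with 21.5% of its blood UMIs in CD8 T-like, 17.2% in Treg-like and 16.3% in B-like cells. Its order of classes was not that of *TNF*, its neighbour in the family. CD8 T-like cells, low in *TNF*, held *LTA* at 20.9, 26.7 and 22.3 CPM, and NRP2-led T-like cells at 30.1, 15.2 and 23.6 CPM. Cytotoxic T-like cells held 17.0, 9.28 and 10.7 CPM. Basophil or mast-like cells had 0 *LTA* UMIs in all 345 blood cells of the class, which allows a share of up to 0.870% of cells with a UMI, and naïve plasma-like cells had 2. Pooled SCI blood was 1.499-fold (interval 1.27 to 1.78) naïve, short of the 1.5-fold line before rounding, and 1.09-fold with every class given the same weight in both libraries. In all 8 classes with 20 UMIs or more the interval of that comparison held 1, with *CD40LG*-led cells nearest to leaving it out (1.49-fold, interval 0.972 to 2.34, and 1.58-fold (interval 1.01 to 2.54) without the top cell of each library). SCI against sham in these cells was 1.69-fold (interval 1.12 to 2.60), past the line with an interval clear of 1, and 1.68-fold (interval 1.10 to 2.61) without the top cells.

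Few cells held both *TNF* and *LTA*, though *LTA* was found more often in T-like cells with *TNF* than in those without. In T-like blood cells, 6.77% of 1004 cells with *TNF* had an *LTA* UMI (interval 5.30 to 8.51%), against 4.66% (4.29 to 5.06%) of cells without it. After thinning the shares were 2.10% and 1.14%. *IFNG* was found in 1.29% of T-like cells with *TNF* and 1.28% without. *LTB* was found in 98.7% of T-like cells with *LTA* and 95.7% without, or 86.3% and 75.0% after thinning. In B-like cells the thinned shares of *LTB* were 74.1% with and 74.4% without *LTA*.

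*LTB* was the most broadly held of the family. Treg-like cells (3729, 3203 and 3746 CPM), CD8 T-like cells (3176, 3409 and 3861 CPM) and B-like cells (2656, 2955 and 3279.8 CPM) were high, as were NRP2-led T-like cells (2769, 2661 and 3382 CPM), and monocyte-like cells stood at 895, 942 and 969.9 CPM. The 387 naïve plasma-like cells held 50.9 CPM, and 13.4% of them had a UMI. Basophil or mast-like cells, a class that should lack *LTB*, stood at 537, 311 and 383 CPM, and 44.1 to 50% of them had a UMI, at medians of 3120.5 to 4850.5 UMIs per cell, above the share of host barcodes. The pooled SCI level was 1.43-fold (interval 1.42 to 1.45) naïve. With equal class weights it was 1.12-fold, and without plasma-like cells 1.16-fold. Within classes SCI exceeded naïve by 1.36-fold (interval 1.29 to 1.44) in cytotoxic T-like, 1.24-fold (interval 1.20 to 1.27) in B-like and 1.22-fold (interval 1.18 to 1.26) in CD8 T-like cells, and stood in Treg-like cells at 1.00-fold (interval 0.977 to 1.03). SCI was below naïve in cycling cells, at 0.764-fold (interval 0.709 to 0.824), and in basophil or mast-like cells, at 0.712-fold (interval 0.570 to 0.893).

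**Figure D3:**
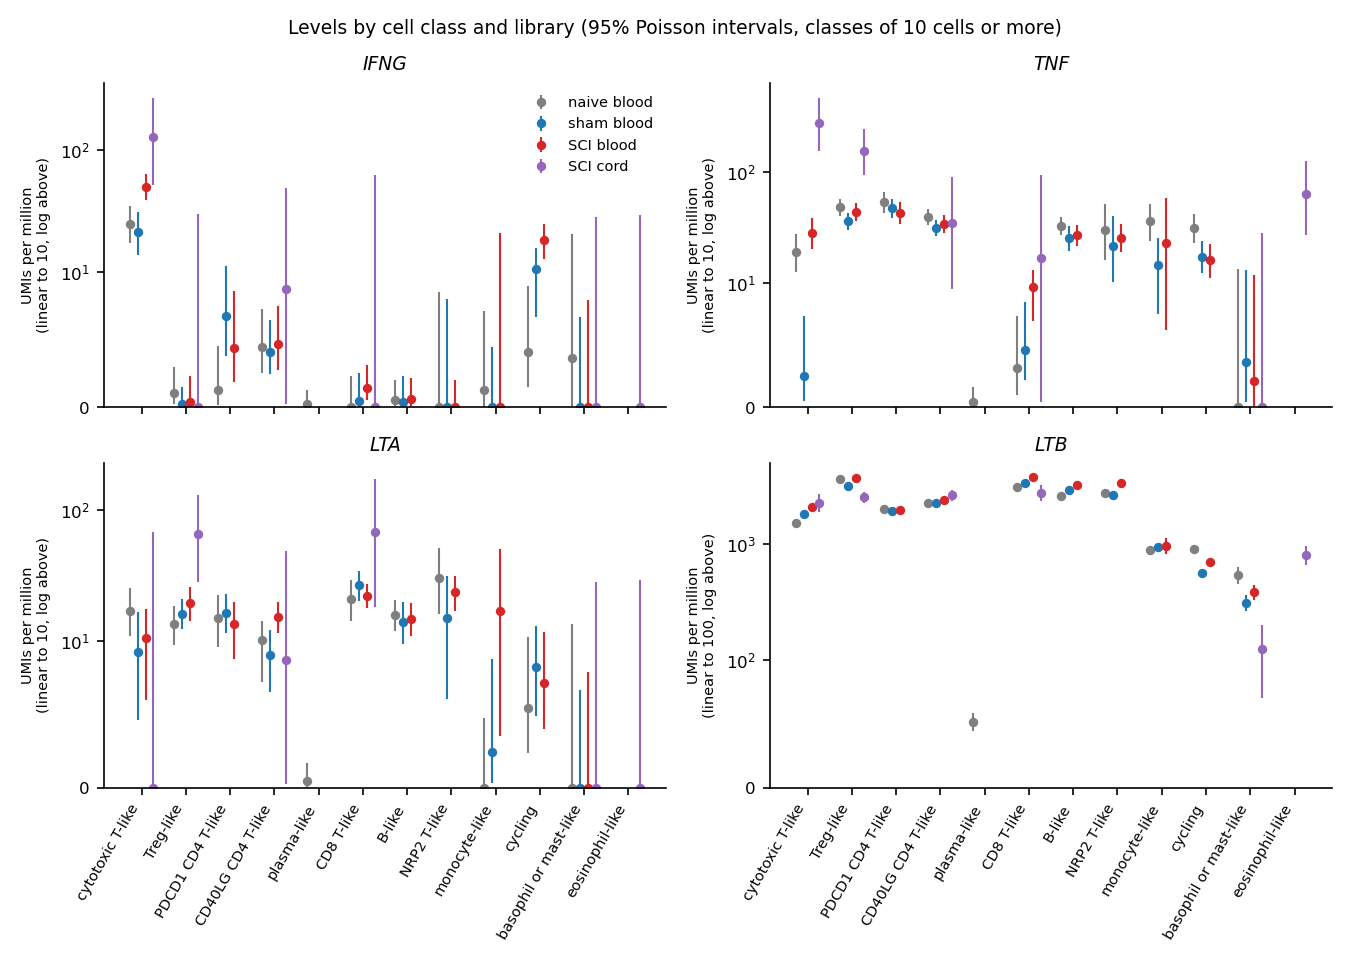
Level of *IFNG*, *TNF*, *LTA* and *LTB* in CPM (y axes, linear near 0 and log above) by cell class (x axis), with 1 point per library and its 95% Poisson interval for classes of at least 10 cells. *IFNG* peaks in cytotoxic T-like cells with the SCI blood point (49.95) above naïve (24.8) and sham (21.1), *TNF* dips in sham cytotoxic T-like (2.53) and in CD8 T-like cells, and the cord points of *TNF* in cytotoxic T-like (276) and Treg-like cells (155) lie above blood.

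*IL2* gave 48 UMIs in blood, of which 29 (60.4%, interval 45.3 to 74.2%) lay in CD4 T-like cells led by *CD40LG*, itself a gene of activated helper cells. Treg-like and B-like cells had 0 in 2969 and 2783 blood cells, which allows shares of up to 0.101% and 0.108%. Treg-like cells held instead the gene of the high-affinity receptor chain, *IL2RA*, at 195, 181 and 139 CPM, against 14.3 to 32.0 in the CD4 class that held *IL2*. The *IL2* counts by library in that class were 6, 17 and 6, and sham against naïve was 2.10-fold (interval 0.830 to 6.83).

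*IL4* and *IL13*, named here as lymphocyte cytokines, were found in these blood cells almost wholly outside the lymphocytes, in basophil or mast-like cells. This class held 158 of 160 blood UMIs of *IL4* (98.8%, interval 95.6 to 99.8%) and 295 of 301 of *IL13* (98.0%, 95.7 to 99.3%), from 345 cells. The 12541 T-like blood cells had 2 *IL4* and 6 *IL13* UMIs, and the 2783 B-like cells had 0 of both (a share of up to 0.108%). *GATA3*, the regulator of type 2 helper T cells, was nonetheless well measured in T-like cells, at 265, 244 and 258 CPM in Treg-like and 185 to 221 in *CD40LG*-led cells, and stood at 7.24 to 15.0 in basophil or mast-like cells. These held *GATA2*, one of their naming markers, at 1354 to 1561.

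Within the class, *IL4* was found in 20.8%, 28.8% and 26.0% of naïve, sham and SCI blood cells and *IL13* in 28.1%, 25.4% and 25.2%. The intervals of each gene's shares overlap between libraries. The level of *IL4* was 98.7, 166 and 83.4 CPM, with sham 1.66-fold (interval 1.09 to 2.70) naïve. In sham blood 1 cell of the class held 41 *IL4* and 31 *IL13* UMIs among its 4694 UMIs, of 92 and 134 in the class, and was not marked as a doublet. Without the cell with most UMIs in each library, sham against naïve was 1.19-fold (interval 0.710 to 2.10) for *IL4* in this class, and SCI against sham 0.838-fold (interval 0.529 to 1.30). *IL13* stood at 278, 242 and 182 CPM, with SCI at 0.654-fold (interval 0.475 to 0.904) naïve, and 0.703-fold (interval 0.499 to 0.997) without each library's top cell.

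Both genes were seen together in some of these cells. Of 88 blood cells of the class with *IL4*, 38.6% had *IL13* (28.4 to 49.6%), against 21.8% (16.9 to 27.3%) of cells without *IL4*. By library the pairs of shares were 55 and 21.1% in naïve, 41.2 and 19.0% in sham and 26.5 and 24.7% in SCI blood. In SCI blood the pair was close to equal. After thinning the shares were 21.4% and 12% over all 3, with intervals that overlap.

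The cells with *IL13* were poor in tryptase transcripts, which mark mast cells and some basophils. *TPSAB1* was found in 14.4% (7.92 to 23.4%) of 90 cells with *IL13* and 46.7% (40.4 to 53.0%) of 255 without. The direction was the same in each library, with 3.70 against 29.0% in naïve, 13.3 against 61.4% in sham and 24.2 against 45.9% in SCI blood, and was kept after thinning (9.09 against 34.6%). *TPSB2* and *KIT*, the receptor gene for stem cell factor, were found beside *IL13* in 23.3 against 53.7% and 38.9 against 59.2% of cells. *HDC*, which encodes the histamine-forming enzyme, was found in 100% and 97.6%. For *IL4* the *TPSAB1* shares were 26.1% with and 42.4% without. These cells come from 3 libraries and are not replicates of a condition.

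**Figure D4:**
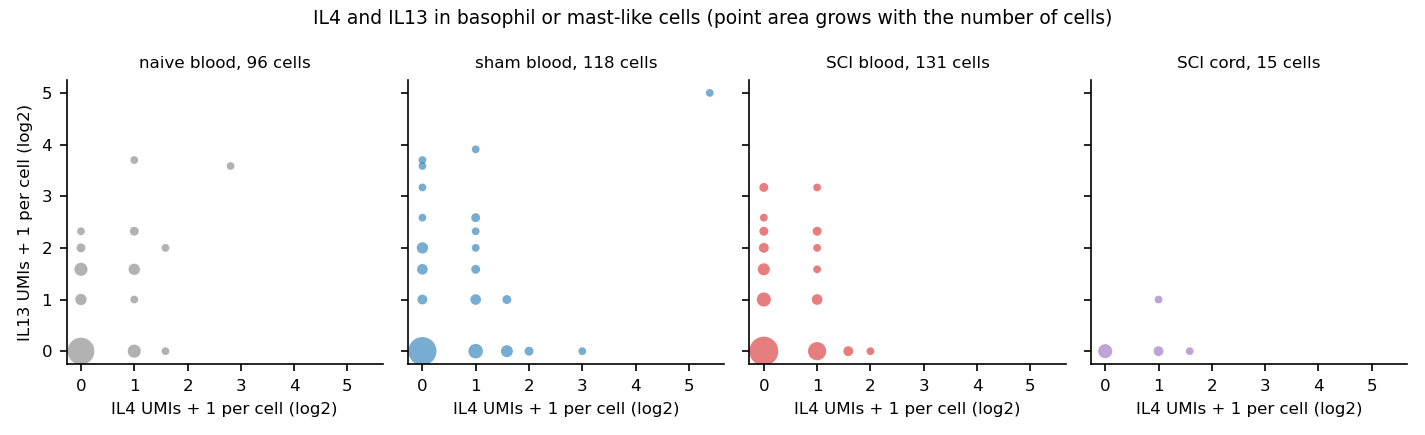
*IL4* (x axis) and *IL13* (y axis) UMIs plus 1 per basophil or mast-like cell, on log2 axes, 1 panel per library, with larger points where more cells share the same pair of counts. Most cells lie at 0 for both genes, the point at the upper right of the sham panel is the single cell with 41 *IL4* and 31 *IL13* UMIs, and the 15 cord cells hold at most 1 *IL13* UMI.

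*IL32* followed the T-like classes. Treg-like cells stood at 5796, 5693 and 5478 CPM, *CD40LG*-led CD4 cells at 3540.3, 3163 and 3912 CPM, cytotoxic T-like cells at 2673, 3037 and 3225 CPM and CD8 T-like cells at 2144, 2032 and 2348 CPM. B-like cells, which should lack it, stood at 220.5, 59.1 and 118 CPM, and 5.10 to 10.1% of them had a UMI. After thinning, 95.4 to 97.1% of Treg-like and 1.58 to 5.10% of B-like blood cells had one. Pooled sham blood was 1.29-fold (interval 1.27 to 1.30) and SCI blood 1.23-fold (interval 1.21 to 1.24) naïve. With equal class weights they were 0.944-fold and 1.02-fold, the first on the other side of 1. Within Treg-like cells the ratios were 0.982-fold (interval 0.962 to 1.00) and 0.945-fold (interval 0.924 to 0.967).

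*IL16* varied little between the T-like classes. Its blood levels lay between 122 and 182 CPM over the 6 T-like classes and 3 libraries, with B-like cells at 97.6, 89.5 and 87.0 CPM and basophil or mast-like cells at 91.4, 65.1 and 85.6 CPM. Naïve plasma-like cells were low at 14.4. After thinning, a UMI was found in 8.52%, 9.0% and 8.85% of naïve, sham and SCI blood cells. Unthinned, the shares were 28.1%, 40.0% and 34.5%, in the order of the median depth of the libraries.

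*AREG* was close to absent from blood. Of its 41 blood UMIs, 21 (51.2%, interval 35.1 to 67.1%) lay in B-like cells, and 0.351 to 1.17% of B-like cells had a UMI. This class had been listed for *AREG* background but held most of its blood UMIs. Host barcodes of blood had 0 *AREG* UMIs, at medians of 15 to 20.5 human UMIs per barcode. At that depth they cannot show whether the B-like UMIs were background. Treg-like cells, in which amphiregulin is best known, had 0 UMIs in 2969 blood cells (a share of up to 0.101%).

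For each pair of libraries, a gene counted as past the line when its pooled level differed by 1.5-fold or more and it had at least 20 UMIs over both. In sham against naïve blood 9 of the 10 genes could be counted and 3 were past the line, all higher. They were *IL2* by 2.66-fold (interval 1.22 to 6.75), *IL4* by 3.53-fold (interval 2.32 to 5.66) and *IL13* by 1.92-fold (interval 1.44 to 2.58). Of all 14531 genes counted, 6.64% were higher and 6.09% lower by as much. The median log2 ratio of the members was 0.36, beside 0.07 for all genes. For *IL13* the pooled difference went with the share of basophil or mast-like cells, 1.52% of naïve and 2.54% of sham cells. With equal class weights its log2 ratio turned from 0.94 to -0.17, and that of *IL4* went from 1.82 to 0.73, or to 1.33 without the top cell of each library.

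In SCI against naïve blood all 10 genes were counted and 3 were higher by 1.5-fold or more, *IFNG* by 2.16-fold (interval 1.61 to 2.94), *IL2* by 1.78-fold (interval 0.757 to 4.67) and *AREG* by 1.78-fold (interval 0.879 to 3.89). Only for *IFNG* did the interval leave out 1. Over all genes 8.68% were higher and 8.57% lower, and the medians were 0.51 for the members and 0.07 for all genes. In T-like cells alone, without the cycling cells, *IFNG* came to 1.36-fold, and none of the counted members was past the line. Both comparisons share the naïve library.

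SCI against sham blood set the operated groups side by side. *IFNG* was higher by 1.59-fold (interval 1.21 to 2.10) and *AREG* by 4.07-fold (interval 1.63 to 14.7), on 23 and 5 UMIs, while *IL4* stood at 0.402-fold (interval 0.267 to 0.586) and *IL13* at 0.624-fold (interval 0.471 to 0.819) the sham level. Over all genes 5.72% were higher and 6.94% lower. With equal class weights *IFNG* was 1.65-fold and *IL13* 0.773-fold, and *IL4* was 0.661-fold without the top cell of each library, among them the sham cell described above, and *IL13* was then 0.735-fold, short of the line. *IL2*, at 0.668-fold (interval 0.327 to 1.31), was just short of the line. Counted per cell, 1 member was higher and 3 lower, with the median of all genes moved by -0.28 and 16.5% of all genes past 1.5-fold. *TNF* (1.04-fold, interval 0.919 to 1.17) and *IL16* (0.994-fold, interval 0.941 to 1.05) had counting intervals that hold 1.

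**Figure D5:**
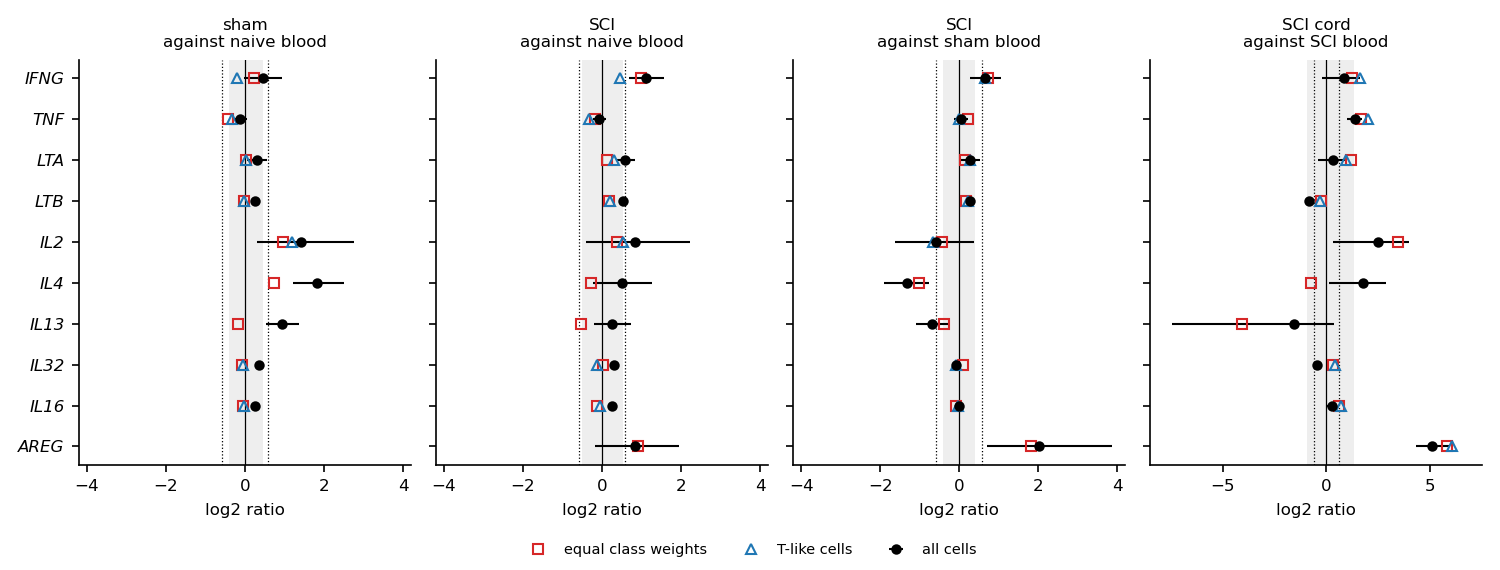
Log2 ratio (x axes) of each gene (y axis) in the 4 comparisons, with black points and 95% counting intervals for all cells, red squares for equal class weights and blue triangles for T-like cells alone. Dotted lines mark 1.5-fold and the grey band holds the middle 80% of all genes counted. In sham against naïve blood the red square of *IL13* lies on the other side of 0 (-0.17) from its black point (0.94), and in the cord *AREG* lies farthest to the right (5.09).

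The injured cord gave 118 human cells, so that single cells weigh heavily in its values. Against SCI blood, 5 of 10 genes were higher by 1.5-fold or more and 2 lower, where 22.1% of all 13390 genes counted were higher and 17.8% lower. *AREG* (34.1-fold, interval 20.1 to 60.4), *TNF* (2.62-fold, interval 2.01 to 3.33), *IL2* (5.54-fold, interval 1.23 to 15.7, on 4 UMIs), *IL4* (3.34-fold, interval 1.08 to 7.43, on 6) and *IFNG* (1.78-fold, interval 0.866 to 3.09, on 12) were the genes above the line. *LTB* (0.561-fold, interval 0.534 to 0.589) and *IL13* (0.340-fold, interval 0.00571 to 1.30, on 1 UMI) were below it. Without the top cell of each library the log2 ratio of *IFNG* went from 0.83 to 0.34, short of the line. Per cell and not in CPM, 8 members were higher in the cord by 1.5-fold or more and 0 lower. *LTB* at 1.39-fold and *IL13* at 0.843-fold lay between the lines. Of all genes counted, 88.1% were then past 1.5-fold in either direction. Cord cells held more UMIs, and the median of all genes moved by 1.31 on the log2 scale with this change.

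*AREG* in the cord rested on 10 of 118 cells (8.47%, interval 4.14 to 15.0%), against 22 of 5934 in SCI blood (0.371%, 0.232 to 0.561%). Basophil or mast-like cells held 18 of its 39 UMIs in 3 of 15 cells, 1 cytotoxic T-like cell held 12 and 1 Treg-like cell 4. Within basophil or mast-like cells the cord level was 138 CPM against 4.28 in SCI blood, 26.5-fold (interval 7.71 to 286) on 2 blood UMIs, and 25.1-fold (interval 5.09 to 1553) without the top cells. Without the top cell of each library the pooled log2 ratio went from 5.09 to 4.70. After thinning, 2 cord cells and 5 SCI blood cells had a UMI. Host barcodes had 1 *AREG* UMI in 92 cord barcodes and 0 in blood.

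*TNF* was found in 27 cord cells (22.9%, interval 15.7 to 31.5%), against 7.48% in SCI blood, and in 4.24% against 1.74% after thinning, where the intervals (1.39 to 9.61% and 1.42 to 2.10%) overlap. Cytotoxic T-like cells held 15 UMIs in 4 of 11 cells, or 276 CPM, 9.86-fold (interval 4.96 to 17.9) SCI blood and 4.47-fold (interval 1.44 to 9.99) without each library's top cell. Treg-like cells held 19 UMIs, 3.62-fold (interval 2.05 to 5.81) SCI blood, of which 1 cell gave 12, and 1.43-fold (interval 0.527 to 2.87) without the top cells. Of 13 eosinophil-like cells, 4 had *TNF*, a class with too few blood cells to compare. *CD40LG*-led CD4 cells stood at 1.15-fold (interval 0.274 to 2.69) SCI blood. Pooled over all cells, *TNF* was 2.21-fold without the top cell of each library and 3.21-fold with equal class weights.

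*IL4* was higher in the pooled cord but not within its class, and *IL13* was lower in both. *IL4* had 6 cord UMIs in 5 of 15 basophil or mast-like cells, a class 12.7% of the cord, and its level within that class was 0.589-fold (interval 0.191 to 1.31) SCI blood, so that the pooled log2 ratio of 1.74 became -0.76 with equal class weights. *IL13* had 1 UMI in these 15 cells, 0.0628-fold (interval 0.00105 to 0.241) the level of the class in SCI blood. The class thus held 85 *IL13* and 39 *IL4* UMIs in SCI blood, and 1 and 6 in the cord. *IFNG* had 7 of 12 cord UMIs in 2 cytotoxic T-like cells, and in this class the cord was 2.74-fold (interval 1.000 to 5.60) SCI blood, or 1.40-fold (interval 0.243 to 3.69) without the top cells. *LTA* in Treg-like cells was 3.54-fold (interval 1.37 to 7.18) SCI blood on 8 cord UMIs, of which 1 cell held 5, and 1.52-fold (interval 0.262 to 4.10) without the top cells.

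*LTB* and *IL32* had different ratios to SCI blood in some T-like classes of the cord. In Treg-like cells *LTB* was 0.688-fold (interval 0.612 to 0.769) and *IL32* 1.21-fold (interval 1.12 to 1.30) SCI blood, and in CD8 T-like cells 0.731-fold (interval 0.622 to 0.849) and 1.81-fold (interval 1.58 to 2.04). In *CD40LG*-led cells they stood close together at 1.10-fold (interval 0.978 to 1.23) and 1.13-fold (interval 1.03 to 1.24), and in cytotoxic T-like cells at 1.09-fold (interval 0.903 to 1.30) and 0.921-fold (interval 0.780 to 1.07). Without the cell with most UMIs of the gene in each library, *LTB* was 0.568-fold (interval 0.499 to 0.642) in Treg-like, 0.563-fold (interval 0.467 to 0.667) in CD8 T-like, 0.730-fold (interval 0.630 to 0.838) in *CD40LG*-led and 0.513-fold (interval 0.382 to 0.663) in cytotoxic T-like cells. *IL32* was then 1.06-fold (interval 0.983 to 1.15), 1.27-fold (interval 1.08 to 1.46), 0.972-fold (interval 0.880 to 1.07) and 0.769-fold (interval 0.640 to 0.910), so that its CD8 T-like value fell short of 1.5-fold and its *CD40LG*-led value turned below 1. *LTB* turned below 1 in the last 2 classes. *IL16* was 2.11-fold (interval 1.40 to 2.99) in *CD40LG*-led and 1.99-fold (interval 1.03 to 3.32) in cytotoxic T-like cells, and 1.80-fold (interval 1.14 to 2.62) and 1.47-fold (interval 0.664 to 2.65) without the top cells, the latter short of the line with an interval that holds 1. In these classes 45.5 to 55.1% of all genes counted differed by 1.5-fold or more between cord and SCI blood, so that folds near that size are common there.

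Genes that respond to tissue dissociation were higher in the same sample. Of the 22 dissociation and immediate early genes, 15 were higher in the cord by 1.5-fold or more and 1 lower, beside 22.1% and 17.8% of all genes. The median log2 ratio of the list was 1.13, against -0.01 over all genes. *ATF3* (4.82) was highest and *KLF6* (-0.79) lowest of the list. Their summed level was 5645, 6733 and 6652 CPM in naïve, sham and SCI blood and 10416 in the cord, with all 22 genes found in every library. In basophil or mast-like cells, which held much of the cord's *AREG*, it was 7999.9 in SCI blood and 13647 in the cord. The part of handling in the cord values of *AREG* and *TNF* was not tested.

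The receptors of these cytokines were set against the shares of all genes given above for each comparison. Of 15 receptor genes, 13 had enough UMIs, and 0 were past 1.5-fold in sham against naïve blood. In SCI against naïve blood 1 was higher (*CD9*, 0.64) and 2 lower (*LTBR*, the lymphotoxin beta receptor, -0.86, and *IL13RA1*, -0.75). Against sham, SCI blood had 3 lower, *IL2RA* (-1.03), *LTBR* (-1.02) and *TNFRSF1B* (-0.61). These 3 of 13 stand beside 6.94% of all genes lower in that comparison. Within Treg-like cells *IL2RA* stood at 181 CPM in sham and 139 CPM in SCI blood. Treg-like cells were 23.5% of sham and 12.5% of SCI blood cells. In cycling cells *IL2RA* stood at 148 and 37.3 CPM, and in *CD40LG*-led cells at 14.3 and 20.7 CPM, in sham and SCI blood. In the cord 8 were higher and 0 lower, with *IL13RA1* (4.12) and *LTBR* (2.71) leading the list and *IL2RA* (2.16) reaching 449.9 CPM in eosinophil-like and 310.5 in Treg-like cord cells. Over all genes 22.1% were higher in the cord. Monocyte-like cells were 5.93% of the cord against 0.303% of SCI blood. With 7 cord cells, no *IL13RA1* level was taken in that class. *EGFR*, the receptor of amphiregulin, and *IL13RA2* had 0 UMIs in all 4 libraries.

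Of 23 regulators of cytokine transcription, 3 were higher in SCI than naïve blood, including *STAT4* (0.88), which acts downstream of IL-12, and 1 lower (*IRF4*, -2.14), a gene that plasma cells use. Over all genes 8.68% were higher and 8.57% lower in this comparison, and the counts of the list lie near these shares. *STAT4* went from 22.0 CPM in naïve to 34.3 in SCI blood in cytotoxic T-like cells, and from 35.5 to 41.0 in CD8 T-like cells. It went from 27.8 to 15.6 in NRP2-led T-like and from 98.7 to 85.6 in basophil or mast-like cells. CD8 T-like cells were 10.4% of naïve and 24.3% of SCI blood cells. The part of class shares in the pooled *STAT4* ratio was not tested. In sham against naïve blood 2 regulators were higher, with *GATA2* at 1.26, and *IRF4* again lower (-1.87), beside 6.64% and 6.09% of all genes. SCI against sham blood had 0 higher and 2 lower, among them *MAF* (-0.68), beside 5.72% and 6.94% of all genes. In the cord 4 were higher, led by *GATA2* (2.15), and 2 lower, beside 22.1% and 17.8% of all genes. Basophil or mast-like cells held almost all blood UMIs of *GATA2*. Within this class it stood at 1396, 1561 and 1354 CPM in naïve, sham and SCI blood and at 1003 CPM in the cord. The class was 1.52%, 2.54% and 2.21% of these blood libraries and 12.7% of the cord. The list medians lay between -0.17 and 0.19 over the 4 comparisons.

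Of 18 other lymphocyte cytokine genes, 10 had enough UMIs in the cord and SCI blood. *XCL1*, a chemokine gene of cytotoxic cells, was the highest in the cord (5.50), in SCI against naïve blood (1.17) and in SCI against sham blood (1.46). In cytotoxic T-like cells, which hold *IFNG*, it stood at 4.25, 6.75, 17.8 and 1067 CPM in naïve, sham and SCI blood and in the cord. In the cord 1 of the 11 cytotoxic T-like cells held all 58 UMIs of the class, of 61 in the whole cord, so that both cord values of *XCL1* rest on 1 cell. *FASLG*, the death ligand gene, was higher in the cord (3.26, on 37 cord UMIs, of which 5 lay in cytotoxic T-like cells). Of the 10 counted genes of the list, 5 were higher and 1 lower there, beside 22.1% and 17.8% of all genes. In sham against naïve blood 0 were higher and 1 lower (*XCL2*, -0.84), beside 6.64% and 6.09% of all genes. *IL5* and *IL9* had 0 UMIs in all 4 libraries. In SCI blood and cord *IL10* had 1 and 5, and *IL17A* had 12 and 0.

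The patterns over classes were compared gene by gene, over 31 sums of a class in a blood library, with Pearson's r of log2 levels against 10967 genes. The sums share libraries and depth, and r is a description. *IFNG* lay nearest to *FASLG* (0.91), *GZMH* (0.88) and *CX3CR1* (0.88). *IL32* lay nearest to *CD3D* (0.99), *TRAC* (0.99) and *TRBC1* (0.99), 3 genes of the T cell receptor complex. *IL13* lay nearest to *ITGA2B*, *GCSAML* and *CD200R1L* (0.999, 0.999 and 0.998), values that 1 class sets. *LTB* lay nearest to *PHF11* (0.94), *ARHGAP4* (0.93) and *TCP11L2* (0.92), and *IL16* to *FGD3* (0.93), *PSMA3-AS1* (0.93) and *ARHGAP4* (0.92). *LTA* lay nearest to *FRYL* (0.89), *TOPORS* (0.89) and *LYRM7* (0.89), and *TNF* least close to its first gene, *CEMIP2* (0.83), followed by *SESN3* (0.78) and *SRGAP2* (0.77). Among the members, *LTB* and *IL16* (0.87) and *LTA* and *LTB* (0.81) were the most alike, and *TNF* and *IFNG* had an r of 0.04.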

How the data were processed

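Single-cell libraries (10x 3′, version 3 chemistry) of sorted human CD45+ cells were made from naïve, sham and SCI blood and from SCI cord, 1 per group. The authors aligned reads and counted UMIs with Cell Ranger 3.1.0, per the file headers, against a joint human (hg38) and mouse (mm10) reference, and deposited the raw count matrices used here, 22830 barcodes in all. From there, barcodes with over 50% of UMIs on human genes were kept (18106), 828 beyond 3 median absolute deviations in UMIs, genes, mitochondrial or ribosomal share were removed, and 258 of 1091 barcodes marked as doublets (Scrublet scores at 0.8% per 1000 barcodes) were removed because they held over 3000 genes, while the other marked ones stayed. The 17020 cells left shared at most 10 barcodes between a pair of libraries, and no column was left without a sample.

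Cells were clustered in scanpy 1.11.5 (2000 variable genes without the 10 members, 30 components, 15 neighbours, Leiden resolution 0.8) and named from listed markers. Ratios of CPM had 0.5 counts added, a gene needed 20 UMIs over both libraries, a class needed 10 cells, and a gene counted as past the line at 1.5-fold. Genes of the lists were named as those with the largest and smallest ratios, and genes like a member by the 3 highest Pearson correlations of log2(CPM + 5), for members with at least 200 blood UMIs. *IFNG-AS1*, *GATA2*, *GATA3*, *TBX21*, *EOMES*, *STAT4*, *IL2RA*, *IL10*, *IL17A* and the co-detected genes were named outside these rules, after their values were seen. Shares of cells were also taken after thinning each cell to 1000 UMIs. The members and lists were chosen with earlier results of these data known. With 1 library per group no test was run, and the ratios were tested on simulated counts. Alternatives were edgeR 4.0.16 (TMM) and median-of-ratios scaling, means per cell, thinning, class weights, T-like cells alone and other filters and clusterings. Intervals cover counting error only.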

Additional observations from a re-analysis of the deposited data

Results flagged for a closer look

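The ratio of a gene went opposite ways in different cell classes in 2 cases, each past 1.5-fold with counting intervals clear of 1, and neither difference was tested, since each group has 1 library. *IL32* in the cord against SCI blood had a log2 ratio of 0.85 in CD8 T-like cells, of which the cord held 10 (1 of them with 76 of 251 UMIs, and 1.27-fold without the top cell of each library, short of the line), and -3.87 in basophil or mast-like cells, where 1 of 15 cord cells had a UMI and the gene stood at 167 CPM in SCI blood, near its level in B-like cells (118 CPM). *TNF* in SCI against naïve blood had a log2 ratio of 1.49 in CD8 T-like cells, on 5 naïve and 41 SCI UMIs, and -0.95 in cycling cells, on 46 and 34.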

How the results depend on the processing

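No paired analysis was possible because each group has 1 library and no library could be left out. The number of members past 1.5-fold in sham against naïve blood was 3, against 8 with mean UMIs per cell, where the median of all genes moved by 0.34 (log2), and 1 in T-like cells alone. The share of all genes past it was 12.7% in the main setting, 26.7% per cell and 8.11% in T-like cells alone. In SCI against naïve blood the number was 3, against 0 of 7 counted after thinning to 1000 UMIs and 0 of 7 in T-like cells alone. It was 5 among barcodes with at least 90% human UMIs and 5 without the cell with most UMIs of each gene. The shares of all genes under these settings were 17.2%, 13.0%, 12.8%, 17.4% and 17.3%, in this order. In SCI against sham blood the number was 4, against 2 after thinning and 2 in T-like cells alone, beside 12.7%, 11.1% and 11.5% of all genes. In the cord against SCI blood it was 7, against 4 of 6 counted after thinning, beside 39.9% and 50.8% of all genes. Thinning and the T-like subset hold fewer UMIs, so that fewer members could be counted. The cause of the other changes was not tested.

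Among the ratios past 1.5-fold the direction turned 3 times. With equal class weights *IL13* in sham against naïve blood went to -0.17 and *IL4* in the cord to -0.76, and with mean UMIs per cell *LTB* in the cord went to 0.48. Of 444 ratios under alternatives, 327 stayed within the main counting interval and 114 left it, some of which turned while short of 1.5-fold. In sham against naïve blood, equal class weights and leaving out plasma-like cells brought *LTB* from 0.25 to -0.03 and -0.06, *IL32* from 0.36 to -0.08 and 0.06, and *IL16* from 0.26 to -0.05 and -0.02. Of 150 class shares of blood UMIs under other clusterings, 136 stayed within their interval. Of 30 percentages of thinned cells of a blood class with a UMI, 5 stayed within their interval and 25 left it without thinning. Leaving out plasma-like cells and leaving out the top cell were chosen after seeing the data. In the cord, 118 cells limit every value, and *IL2*, *IL4* and *IL13* rest on 4, 6 and 1 UMIs there.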

Other observations

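*LTB* was also found outside the lymphoid classes, in blood (236 of 248 monocyte-like and 13 of 15 eosinophil-like cells) and in the cord. The 13 eosinophil-like cord cells held 102 *LTB* UMIs, of which 1 cell gave 65, and 11 of them had at least 1. *IL32* was found in 2 of these cells, with 48 of 58 UMIs in 1 cell. Of 9 B-like cord cells, 1 held all 28 *IL32* UMIs of the class. In blood, *IL17A*, the type 17 cytokine gene, had 12 UMIs in the SCI library and 0 in the naïve and sham libraries, and *IL10* had 5, 6 and 1 in naïve, sham and SCI blood.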
